A study of Mus musculus with 14 samples.

Results

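The livers compared here came from mice fed a high-fat diet that carried a silk scaffold without cells. They are 8 of the 14 livers sequenced in the series, and were split by the number that each sample title carries. Sham52, Sham79, Sham80 and Sham83 (below 100, n = 4) were compared with Sham175, Sham176, Sham178 and Sham179 (100 or above, n = 4). The labels do not say what the numbers stand for, so the comparison describes how livers without transplanted cells varied and not the effect of any named treatment. The other 6 livers came from recipients, on the same diet, of differentiated pre-adipocytes from the stromal fraction of brown fat, seeded on silk scaffolds. They were used only to set the same contrast beside an independent group, iBAT88, iBAT89 and iBAT90 against iBAT115, iBAT129 and iBAT130. Livers are named here by the words and number of their titles. Sham (in full Sham-WT) marks the empty scaffold and iBAT (iBAT 2x) the transplant, and the labels explain neither further. The sources used here do not give strain, sex, age, time on the diet or day of collection. They also do not state that the livers are separate animals, and p-values then measure only the spread between these samples, which may be technical.

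Liver RNA comes mostly from hepatocytes, which take up, store, burn and export fat, make the plasma proteins, and detoxify drugs through cytochrome P450 and glutathione transferase enzymes. PPARA is the nuclear receptor that turns on fatty acid oxidation in hepatocytes, SREBP and LXR factors control sterol and fat synthesis, and many of these genes follow the circadian clock and meals. The number of reads that a transcript yields can also depend on its length and base composition, so every gene was tested as fitted and again after each library's trends of level against transcript length and GC content were removed. Levels are CPM, counts relative to a scaled library size that is the same for all livers, and are compared between libraries and not between genes. Fold changes are log2 differences, livers at 100 or above minus livers below 100, with the standard error (SE) of the fit. The threshold for calling a gene was 0.05 on the adjusted p.

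The largest fold changes between the ranges were in a pair of genes for the same ribosomal protein. Rps27 encodes a component of the small ribosomal subunit, and Rps27rt is its intronless copy. In the GENCODE M21 annotation of build GRCm38, which is an older build than the GRCm39 that the submitters name, Rps27-201 has 4 exons at chr3:90212671-90213651 on the minus strand. Rps27rt-201 has 1 exon at chr9:114982366-114982739 on the minus strand. Their coding sequences are shown because they are identical over all 252 bases and so encode the same 84 residues:
Rps27-201 coding sequence: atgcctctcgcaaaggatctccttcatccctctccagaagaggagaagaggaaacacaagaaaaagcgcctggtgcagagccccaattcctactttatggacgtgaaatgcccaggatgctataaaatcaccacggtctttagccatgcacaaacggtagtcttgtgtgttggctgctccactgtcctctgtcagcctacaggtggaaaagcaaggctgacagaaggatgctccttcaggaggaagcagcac
Rps27rt-201 coding sequence: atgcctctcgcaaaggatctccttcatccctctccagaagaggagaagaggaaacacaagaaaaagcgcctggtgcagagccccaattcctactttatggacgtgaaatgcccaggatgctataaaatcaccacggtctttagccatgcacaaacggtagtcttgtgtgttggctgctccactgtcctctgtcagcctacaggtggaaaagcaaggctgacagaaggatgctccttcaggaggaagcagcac
Of the words of 31 bases in each gene's transcripts, 27.4% for Rps27 and 92.7% for Rps27rt also occur in transcripts of other genes, so reads can be assigned to either and each gene's own level is uncertain.

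Rps27 was counted at 155, 169, 162 and 124 CPM in Sham52, Sham79, Sham80 and Sham83, and at 8.74, 1.86, 2.45 and 10.5 CPM in Sham175, Sham176, Sham178 and Sham179. Rps27rt was counted at 2.11, 1.98, 3.70 and 0.549 CPM in the first 4 and at 116, 102, 96.6 and 85.1 CPM in the others. The ranges did not overlap for either gene, and the counts moved almost whole from one copy to the other. Rps27 fell by 4.69 (SE 0.56, adjusted p = 0.00233) and Rps27rt rose by 5.64 (SE 0.39, adjusted p = 0.00191). The sum of both copies differed far less, with 157, 171, 166 and 125 CPM below 100 and 124, 103, 99.0 and 95.5 CPM at 100 or above. Its means were 155 ± 20.7 (SD, n = 4) and 106 ± 13 (SD, n = 4), a log2 difference of -0.55, with no overlap and a two-sided exact permutation p = 0.0286, which is the smallest that 4 against 4 allows. Transplant livers showed the same split, with Rps27rt holding 0.873% to 2.71% of the pair's counts in iBAT88, iBAT89, iBAT90 and iBAT115 and 98.5% and 98.0% in iBAT129 and iBAT130. iBAT115, numbered above 100, thus sat with the livers numbered below 100.

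Another shift between near-identical transcripts was found in Nnt, a mitochondrial transhydrogenase that makes NADPH. Nnt was chosen after its values were seen. The annotation lists transcripts Nnt-202 and Nnt-206 with 17 exons and Nnt-201 with 15. It places Nnt-206 under a gene identifier of its own, and shares are given of all Nnt transcripts under both identifiers. The missing exons, both coding in full, are exons 8 and 9 of Nnt-202, on the minus strand of GRCm38 at chr13:119374629-119374774 (146 bases) and chr13:119372396-119372591 (196 bases). They are shown because they are what tells Nnt-201 from the others:
Nnt exon 8: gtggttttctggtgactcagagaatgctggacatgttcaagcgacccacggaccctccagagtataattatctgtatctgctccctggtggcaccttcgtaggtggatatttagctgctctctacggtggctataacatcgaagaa
Nnt exon 9: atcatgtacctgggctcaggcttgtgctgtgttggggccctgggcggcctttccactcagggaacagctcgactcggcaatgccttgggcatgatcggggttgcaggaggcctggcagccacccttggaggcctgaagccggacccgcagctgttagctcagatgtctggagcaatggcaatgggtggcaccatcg
The labels give no strain, and whether the livers differ in the Nnt sequence they carry was not tested.

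Nnt-202 held 0.0% of Nnt counts in Sham79, Sham80 and Sham83 and 68.6%, 71.3%, 88% and 76.7% in Sham175, Sham176, Sham178 and Sham179. Nnt-201 held 35.8%, 52% and 36.1% in Sham79, Sham80 and Sham83, against 0.0%, 0.6%, 0.0% and 0.0% at 100 or above. Sham52 did not go with its range, with 56.7% in Nnt-202, 9.0% in Nnt-201 and 33.9% in Nnt-206. Counts of all Nnt transcripts together, on unscaled library totals, were 121.1 to 156.5 CPM below 100 and 168.4 to 192.0 CPM at 100 or above. Among transplant livers, Nnt-202 held 0.0% in iBAT88, iBAT89 and iBAT90, 11% in iBAT115, and 62.0% and 60.6% in iBAT129 and iBAT130.

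**Figure D1:**
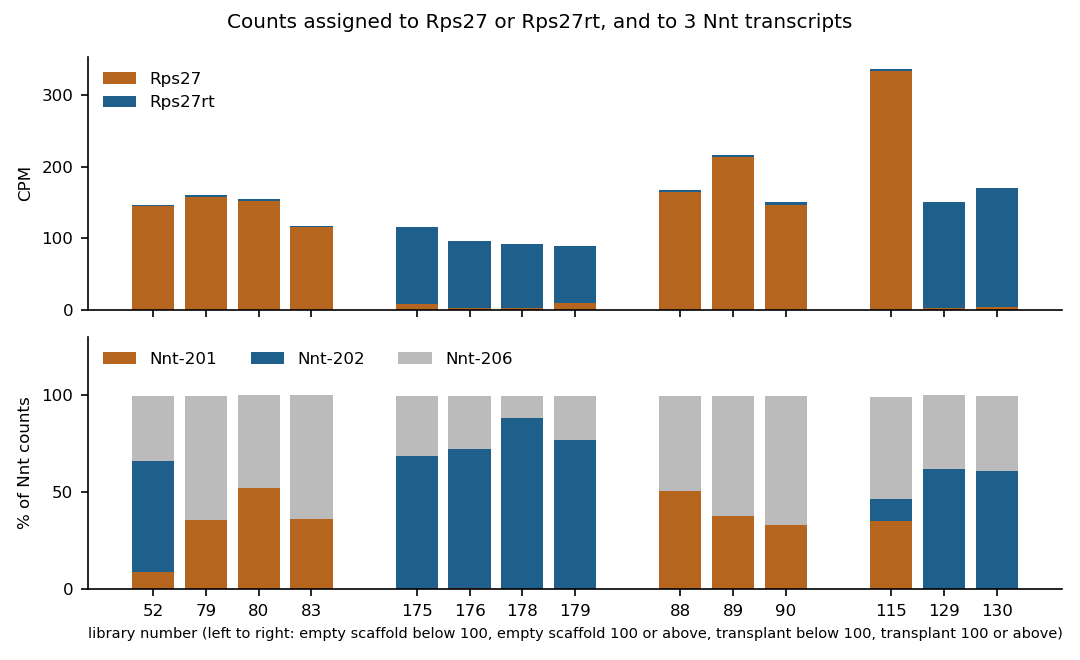
Counts assigned to Rps27 and Rps27rt (upper panel, stacked bars in CPM scaled over all 14 libraries) and the share of Nnt counts in 3 transcripts (lower panel, percent), 1 bar per library. Rps27rt holds most of the pair's counts in Sham175, Sham176, Sham178, Sham179, iBAT129 and iBAT130 and under 3% in the others, and Nnt-202 is at 0.0% in Sham79, Sham80, Sham83, iBAT88, iBAT89 and iBAT90.

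Such shifts between transcripts of a gene were not rare. Among 49305 transcripts of 7378 genes with at least 100 counts in every empty scaffold liver, 3638 held a larger share of their gene at 100 or above with no overlap between the ranges, and 2268 a smaller one. Differences of at least 30 percentage points without overlap were seen for 454 transcripts of 300 genes. In 154 of these genes 1 transcript gained and another lost, and the gaining one was the longer in 139. Over all transcripts without overlap the lengths went the other way, with a median of 1604 bases for those that gained share and 2256 for those that lost it. An example, chosen after its values were seen, is Plec, which encodes the cytoskeletal linker plectin. Plec-206 held 8.2%, 0.6%, 0.1% and 0.2% of Plec counts in Sham52, Sham79, Sham80 and Sham83 and 70.5%, 67.5%, 93.6% and 78.6% in Sham175, Sham176, Sham178 and Sham179. These shares are kallisto's assignments, and no junction reads were analysed here.

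Libraries of the ranges differed in depth and in how level followed transcript length. Total estimated counts were 19482580 to 23948849 below 100 and 24407698 to 28723928 at 100 or above. The slope of log2 CPM against log2 transcript length, relative to the mean library, was -0.11, -0.16, -0.20 and -0.08 in Sham52, Sham79, Sham80 and Sham83, and 0.13, 0.11, 0.15 and 0.16 in Sham175, Sham176, Sham178 and Sham179. All 4 livers below 100 were thus tilted towards short transcripts and all 4 at 100 or above towards long ones. The difference of 0.276 per doubling of length had an exact permutation p = 0.0286 (two-sided, adjusted p = 0.0429 over 6 library properties). Total count, the number of genes with a count, and the share of the 10 most abundant genes (21.5% ± 1.74 against 18.6% ± 0.726, SD, n = 4 each) also did not overlap, each with an exact permutation p = 0.0286. The slope against GC content overlapped (exact permutation p = 0.257), as did the share of mitochondrially encoded counts, 7.21% ± 1.6 and 5.94% ± 0.122 (SD, n = 4 each, exact permutation p = 0.143). The spread of the deposited effective lengths, an added property, was 0.165 to 0.188 below 100 and 0.146 to 0.148 at 100 or above. It was 0.181 to 0.195 in transplant iBAT88, iBAT89, iBAT90 and iBAT115 and 0.146 and 0.151 in iBAT129 and iBAT130.

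On the first principal component of log2 CPM, which held 40.1% of the variance, Sham79, Sham80 and Sham83 scored 23.2, 49.9 and 20.4 and the livers at 100 or above between -17.9 and -30.2. Sham52 scored 1.6, between the ranges, and stood apart on the second component. With the length and GC trends removed, it scored -10.4, near the -12.2 of Sham175. The median absolute log2 difference between Sham52 and Sham79, Sham80 and Sham83 was 0.237 to 0.348, and with the livers at 100 or above 0.269 to 0.319. Counts that Sham52 changed are given without it below. Hepatocyte genes were abundant in every library, with 129000 to 206000 CPM summed over the 24 tested genes of the list below 100 and 113000 to 139000 at 100 or above, and Alb (albumin) at 59300 to 102000 CPM. Of 14 exocrine pancreas genes, 7 were at 0 in all 8 livers. The list summed to 11.8 to 23.0 CPM below 100 and 11.2 to 20.3 CPM at 100 or above, on unscaled library totals.

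**Figure D2:**
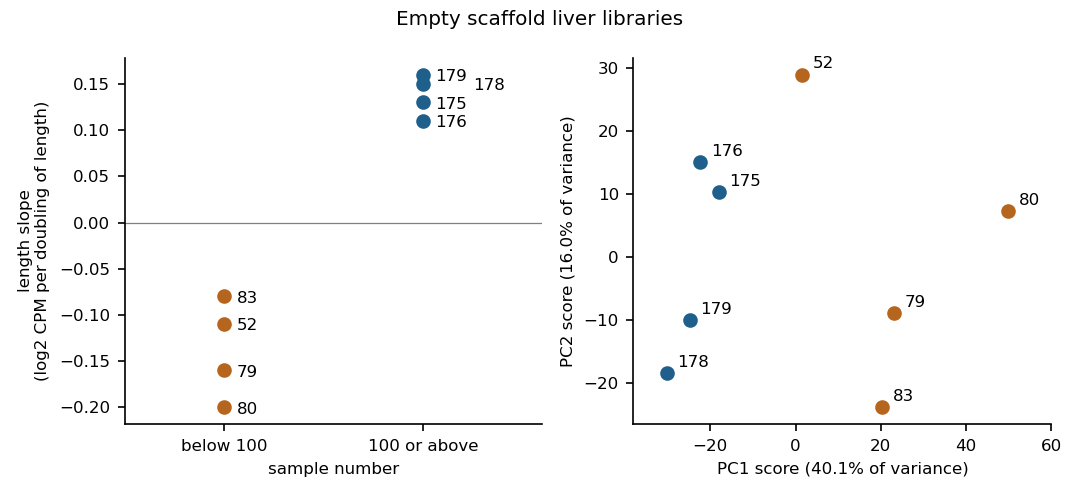
Length slope of each empty scaffold library (left, log2 CPM per doubling of transcript length, relative to the mean library) and the first principal components of log2 CPM (right). Slopes are below 0 for Sham52, Sham79, Sham80 and Sham83 and above 0 for Sham175, Sham176, Sham178 and Sham179, and Sham52 lies at 1.6 on the first component, between the other livers of its range and those at 100 or above.

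Many genes differed between the ranges as fitted, and the direction followed transcript length. Of 13206 genes tested, 3237 were called (24.5%), 1601 higher (12.1%) and 1636 lower (12.4%) in livers at 100 or above. Tested genes were divided into 5 groups of equal size by transcript length. In the group with the shortest transcripts (173 to 1552 bases) the median log2 fold change was -0.41, and 1182 genes were called lower and 22 higher. In the group with the longest (4504 bases and up) it was 0.38, with 1049 called higher and 14 lower. The 3 groups between had medians of -0.16, 0.03 and 0.19, so the contrast rose step by step with length. GC content made less difference, with medians from 0.10 in the group lowest in GC to -0.06 in the highest. With both trends removed, 164 genes were called (1.24%), 55 higher (0.416%) and 109 lower (0.825%), and the medians of the length groups lay between -0.07 and 0.02. Of these 164 genes, 137 were called as fitted too, all in the same direction. This smaller count turned on single livers. It was 1289 without Sham52 (9.59% of 13438 genes tested), 558 higher (4.15%) and 731 lower (5.44%), and 163 of the 164 were among them. Without any 1 of the other 7 livers it was between 4 and 30.

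**Figure D3:**
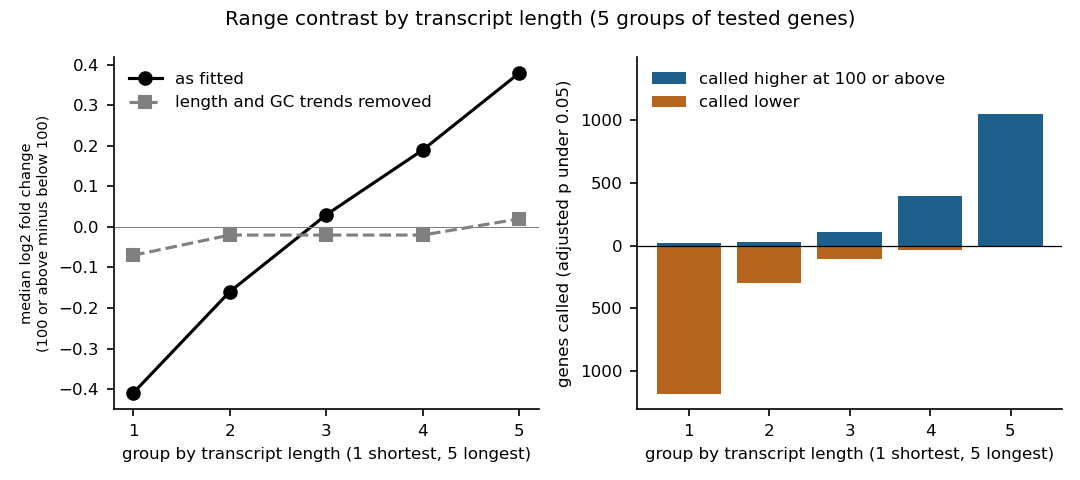
Median log2 fold change (left) and number of genes called higher or lower at 100 or above (right, edgeR, adjusted p under 0.05) in 5 groups of tested genes of rising transcript length. The median goes from -0.41 in the shortest group to 0.38 in the longest as fitted, and lies between -0.07 and 0.02 once both trends are removed.

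The genes described next were called both ways. They are the 12 largest rises and the 12 largest falls among named genes whose mean was 1 CPM or more. All 24 were called as fitted without any 1 of the 8 livers, and none overlapped between the ranges. They were picked from these same livers as the largest called differences, so neither is independent support. With the trends removed, all 24 kept their sign when a liver was left out, but 2 of them, Rps27rt and mt-Nd6, were called in all 8 such tests, and 15 were called only when Sham52 was the liver left out. The others thus depend, with the trends removed, on which livers are included.

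The rises included regulators of fat and glucose use. Ppara was measured at 83.1, 53.3, 42.2 and 52.2 CPM in Sham52, Sham79, Sham80 and Sham83 and at 151, 128, 155 and 142 CPM in Sham175, Sham176, Sham178 and Sham179. Every liver at 100 or above exceeded every liver below 100, with Sham52 the nearest. Ppara rose by 1.32 (SE 0.18, adjusted p = 0.00196) and by 1.22 with the trends removed (adjusted p = 0.0264). Pfkfb2 encodes an enzyme that sets the level of a fructose bisphosphate that activates glycolysis. It stood at 5.77, 3.80, 2.36 and 3.38 CPM below 100 and at 6.90, 7.63, 8.62 and 9.47 CPM at 100 or above, a rise of 1.08 (SE 0.23, adjusted p = 0.00713; 0.97 with the trends removed, adjusted p = 0.0474). Sham52 and Sham175 came closest to each other.

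Genes of the liver's non-hepatocyte cells and of secreted factors were also among the rises. Hgf, the hepatocyte growth factor that stellate and endothelial cells release, was at 3.11, 1.98, 3.13 and 4.10 CPM below 100 and at 7.27, 8.46, 10.6 and 10.6 CPM at 100 or above. It rose by 1.57 (SE 0.21, adjusted p = 0.00191; 1.44 with the trends removed, adjusted p = 0.0210). Colec10, a collectin of innate immunity made in the liver, was at 9.02, 11.4, 9.96 and 13.9 CPM and then at 22.6, 26.3, 24.7 and 26.3 CPM. The livers of each range lay close together, and Colec10 rose by 1.17 (SE 0.13, adjusted p = 0.00191; 0.88 with the trends removed, adjusted p = 0.0264). Lamb1, a laminin chain of basement membranes, was counted at 0.137 to 0.465 CPM below 100 and at 2.36, 8.0, 1.62 and 8.01 CPM at 100 or above. Its rise of 3.92 (SE 0.67, adjusted p = 0.00414; 3.59 with the trends removed, adjusted p = 0.0480) rests on low counts, and with the trends removed it was called in none of the 8 tests that left out a liver. Transcripts that did not match the annotation were not counted, so the level of a gene such as Lamb1 can be that of only some of its transcripts. In bulk tissue, more cells of a type and more RNA per cell cannot be told apart.

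The remaining rises were spread over several functions. Ipo8, a nuclear import receptor, was at 22.9, 11.9, 9.38 and 14.3 CPM below 100 and at 35.0, 35.4, 38.9 and 37.9 CPM at 100 or above (log2 1.32, adjusted p = 0.00343). Sham52 was again the liver of its range nearest to the others. Mast2, a microtubule-associated kinase (log2 1.40), Ston1, an endocytic adaptor (1.37), Pcdhgc3, a protocadherin (1.39), and Asap3, a GTPase-activating protein for ARF (1.07), rose with adjusted p between 0.00201 and 0.00430. Pcdhgc3 shares 66.2% of its 31-base words with other genes of its cluster, so its own level is uncertain. Among mitochondrially encoded genes, mt-Nd6, a complex I subunit and the mitochondrial protein gene encoded on the light strand, was at 29, 39.6, 24.6 and 35.3 CPM below 100 and at 55.1, 60, 66.7 and 69.9 CPM at 100 or above. It rose by 0.97 (SE 0.14, adjusted p = 0.00216) and by 1.5 with the trends removed (adjusted p = 0.00303). The transcripts on the opposite strand over mt-Nd6 cannot be told from it unless counting used strand, which the sources used here do not state.

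The falls included enzymes of detoxification. Cyp3a11, a main drug-metabolising cytochrome P450 of mouse liver, was at 1230, 1390, 1050 and 1650 CPM in Sham52, Sham79, Sham80 and Sham83 and at 661, 503, 827 and 614 CPM in Sham175, Sham176, Sham178 and Sham179. It fell by 1.03 (SE 0.18, adjusted p = 0.00321), and by 1.01 with the trends removed (adjusted p = 0.0299), so removing the trends hardly moved it. The list of xenobiotic metabolism by CYP genes did not fall with it. Of its 24 tested genes 1 was called lower, Cyp3a11, and 2 higher, Nr1i3 (0.58) and Ahr (0.36). That is 12.5%, against 24.5% of all tested genes, and the list's median was 0.04. Mgst3, a microsomal glutathione transferase, was at 31.4, 54.8, 48.9 and 53.4 CPM and then at 19.9, 16.1, 18.9 and 23.1 CPM. It fell by 1.27 (SE 0.17, adjusted p = 0.00196; by 0.91 with the trends removed, adjusted p = 0.0393), with Sham52 lowest of its range. Gstm5, a cytosolic glutathione transferase, was at 9.57, 12.0, 13.5 and 14.1 CPM and then at 5.26, 5.96, 6.13 and 5.36 CPM, and fell by 1.11 (SE 0.14, adjusted p = 0.00191; by 0.72 with the trends removed, adjusted p = 0.0352).

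Mitochondrial genes made up another share of the falls. Cycs, cytochrome c, was at 54.5, 83.8, 89.7 and 89.9 CPM below 100 and at 37.8, 43.4, 40.6 and 42.2 CPM at 100 or above. It fell by 0.95 (SE 0.15, adjusted p = 0.00225; by 1.1 with the trends removed, adjusted p = 0.0309). Sham52 lay between the other livers of its range and those at 100 or above. The complex I subunits Ndufa13 (log2 -0.94), Ndufb4 (-0.90) and Ndufc2 (-0.90) fell with adjusted p of 0.00191 or 0.00196. After removal of the trends their differences were -0.62, -0.50 and -0.44. Further falls were Mien1 (-0.92), a regulator of cell migration, and Snapc5 (-0.89), a subunit of a complex that binds promoters of small nuclear RNA genes. Rad51b (-0.97), a recombination factor, and Ocstamp (-1.41), an osteoclast fusion protein counted at 0.273 to 2.11 CPM in these livers, fell too.

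**Figure D4:**
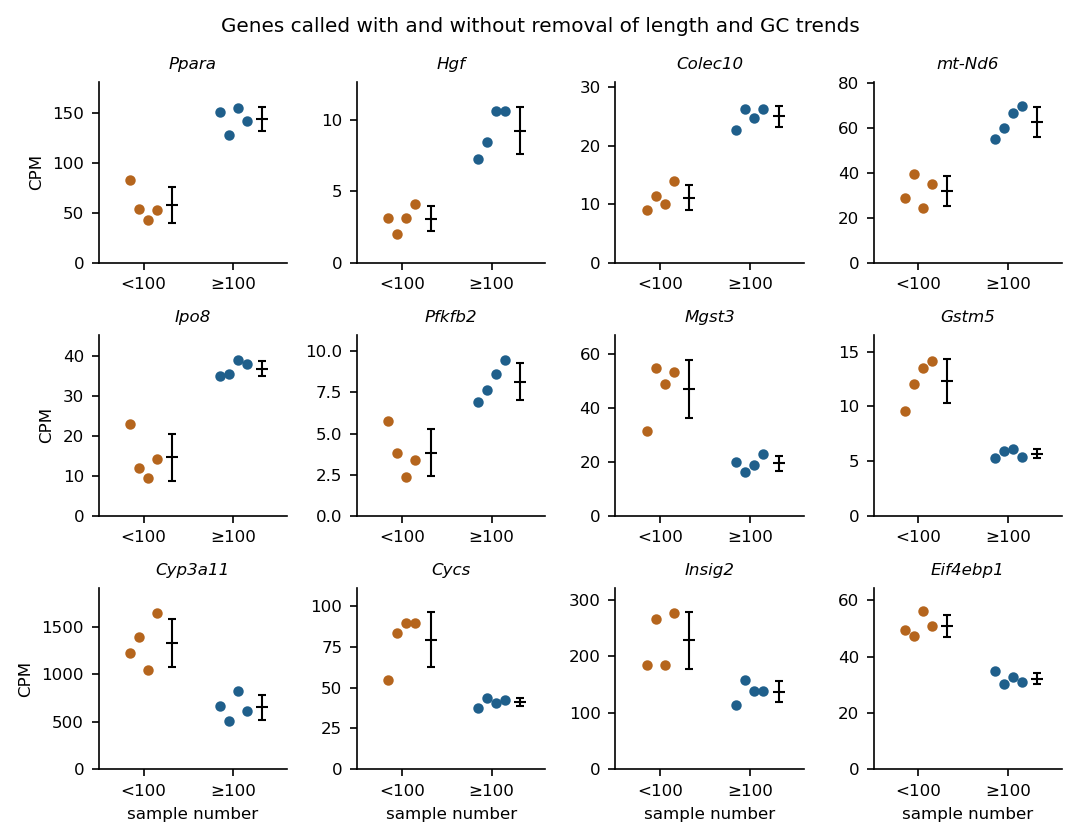
Level in CPM of 12 genes called with and without removal of length and GC trends, 1 point per empty scaffold liver, with mean and SD (n = 4 a range; livers in rising order of number from left to right). The genes were picked as called in these livers, and none overlaps between the ranges. Sham52 is the point nearest to the range at 100 or above for Ppara, Ipo8, Pfkfb2, Mgst3, Gstm5 and Cycs.

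Ribosomal protein and respiratory chain genes, whose transcripts are short, fell together as fitted. Among all tested genes 24.5% were called and 12.4% were called lower, with a median of 0.02. Of 68 cytosolic ribosomal protein genes tested, 60 were called lower and none higher (88.2%, median -0.58). Examples were Rpl35 (-0.88, adjusted p = 0.00191), Rps15 (-0.80, adjusted p = 0.00191) and Rpl19 (-0.76, adjusted p = 0.00196). Rpl35 shares 86.9% of its 31-base words with other genes and is likewise uncertain. Of 63 nuclear encoded respiratory chain genes, 53 were called lower and none higher (84.1%, median -0.60). Among them were Ndufb7 (-0.87, adjusted p = 0.00191), Ndufb3 (-0.86, adjusted p = 0.00191) and Cox7b (-0.74, adjusted p = 0.00191). The median transcript length was 752 and 760 bases in these lists and 2716 bases over all tested genes. In the group of tested genes with the shortest transcripts (173 to 1552 bases) 45.6% were called. With the trends removed the medians were -0.13 and -0.15 against -0.02 over all tested genes, and 1 and 3 genes were called lower, Rps27 among the ribosomal genes and Ndufb4 among the respiratory chain genes. Histone genes, with 7 of 11 called lower (63.6%, median -0.32), had none called with the trends removed (median -0.11).

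The 13 tested genes of mitochondrial DNA did not move as 1 group, with 46.2% called as fitted against 24.5% of all tested genes. As fitted 5 were called lower, mt-Nd3 (-0.98, adjusted p = 0.00968), mt-Co3 (-0.77), mt-Co2 (-0.67), mt-Atp6 (-0.67) and mt-Nd1 (-0.65), and mt-Nd6 was called higher. After removal of the trends mt-Nd6 alone was called, and the list's median moved from -0.52 to -0.21. The call of mt-Co3 was lost without Sham79 or Sham179, that of mt-Co2 without any 1 of Sham79, Sham80, Sham83, Sham176, Sham178 and Sham179, and those of mt-Nd1 and mt-Atp6 without any 1 liver other than Sham52. In Sham80 mitochondrially encoded counts were 8.50% of the library and in Sham52 4.91%, the highest and lowest of the 8.

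Genes of insulin signalling, many of which have long transcripts, were called mostly higher as fitted, with 10 of 31 higher and 4 lower (45.2% called, against 24.5% of all tested genes). The insulin receptor Insr was at 64.6, 68.6, 70.3 and 71.5 CPM below 100 and at 97.6, 89.1, 92.5 and 93.1 CPM at 100 or above, with no overlap and a log2 fold change of 0.44 (SE 0.08, adjusted p = 0.00400). Rictor (0.69), a subunit of the mTORC2 kinase complex, and Tsc1 (0.69) and Tsc2 (0.56), which restrain mTORC1, also rose as fitted. With an offset from the deposited effective lengths Tsc2 was at -0.65, the opposite sign. With the trends removed Insr was at -0.03 (adjusted p = 0.875), and no gene of the list was called higher. Eif4ebp1, a repressor of translation that mTORC1 inactivates, fell as fitted (-0.66, adjusted p = 0.00191) and with the trends removed (-0.50, adjusted p = 0.0352). It was at 49.3, 47.3, 56.2 and 50.9 CPM below 100 and at 34.8, 30.3, 32.8 and 30.8 CPM at 100 or above. Eif4ebp1 was called with the trends removed in 1 of the 8 tests that left out a liver, the one without Sham52. The list's median was 0.15 as fitted and -0.06 with the trends removed.

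Over all tested genes 24.5% were called, and the shares in the lipid lists were 30.4% for the fed response, 12.0% for cholesterol synthesis and 20% for steatosis. Lipid genes moved in both directions. Of 23 fed response and lipogenesis genes 4 were called higher and 3 lower (median -0.13). Insig2, which holds SREBP in the endoplasmic reticulum, was at 185, 266, 185 and 278 CPM below 100 and at 113, 159, 138 and 139 CPM at 100 or above. It fell by 0.74 as fitted (SE 0.16, adjusted p = 0.00812) and by 0.74 with the trends removed (adjusted p = 0.0436), when it too was called only without Sham52 among the tests that left out a liver. The glycerolipid enzyme Gpam rose as fitted (0.54, adjusted p = 0.00977) and was not called with the trends removed (0.16, adjusted p = 0.468). Of 25 cholesterol synthesis genes 3 were called higher as fitted and none with the trends removed. The sterol carrier Stard4, one of them, was at 26.2, 38, 39 and 34 CPM below 100 and at 56.1, 67.4, 48.7 and 51.0 CPM at 100 or above, with no overlap. It rose by 0.70 as fitted (SE 0.14, adjusted p = 0.00561) and was at 0.36 with the trends removed (adjusted p = 0.310).

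Ppara rose, but of the 37 tested members of the fatty acid oxidation and PPARA target list, itself included, 2 were called higher and 2 lower as fitted (10.8%), and Ppara alone with the trends removed. Acot1, an acyl-CoA thioesterase, rose (0.59, adjusted p = 0.0487), the beta-oxidation enzymes Ech1 (-0.44, adjusted p = 0.0380) and Eci1 (-0.36, adjusted p = 0.0492) fell, and the list's median was 0.04. Ech1 and Eci1 lost their calls without any 1 liver other than Sham52, and Acot1 without any 1 liver other than Sham79 and Sham178. The PPARA target Cyp4a14 was at 599 to 1090 CPM below 100 and at 903 to 1470 CPM at 100 or above (log2 0.55, adjusted p = 0.0689), and was called without Sham52 or Sham178. Of 30 steatosis and lipid droplet genes 5 were called lower and 1 higher (median -0.34), among them G0s2, an inhibitor of lipolysis (-0.68, adjusted p = 0.00476). None of these 6 was called with the trends removed, when G0s2 was at -0.24 (adjusted p = 0.299) and the droplet protein Plin3 alone was called (-0.54, adjusted p = 0.0491). The droplet proteins Cidea and Cidec, which rise with hepatic fat, varied widely within each range. Cidea was at 6.87, 87.5, 12.2 and 76.1 CPM below 100 and at 8.61, 7.89, 40.0 and 28.3 CPM at 100 or above (log2 -1.11, SE 0.96, adjusted p = 0.445). Cidec went with it, at 13.8, 96.0, 53 and 127 CPM and then at 19.5, 14.5, 66.0 and 40.3 CPM (log2 -1.05, adjusted p = 0.352). Livers of 1 range thus differed in these genes by more than the ranges did.

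Carbohydrate and antioxidant genes were called at shares of 33.3% for glycolysis and 29% for NRF2 targets, against 24.5% of all tested genes. In glycolysis 6 of 24 genes were called lower, and none with the trends removed, such as Khk, the fructokinase (-0.62, adjusted p = 0.00531), and 2 higher, Pfkfb2 and Tpi1. Tpi1, triose phosphate isomerase, was at 15.8 to 22.5 CPM below 100 and at 27.2 to 40.4 CPM at 100 or above, and rose by 0.82 (adjusted p = 0.00328; 1.21 with the trends removed, adjusted p = 0.0200). Its call with the trends removed was lost in 4 of the 8 tests that left out a liver, those without Sham79, Sham176, Sham178 or Sham179. As for Lamb1, transcripts outside the annotation were not counted. Of 31 NRF2 targets and glutathione genes 8 were called lower and 1 higher as fitted, with a median of -0.36, and none with the trends removed (median -0.21). Gstp1, a glutathione transferase, was at 893, 890, 980 and 996 CPM below 100 and at 488, 504, 546 and 562 CPM at 100 or above. It fell by 0.84 as fitted (SE 0.11, adjusted p = 0.00191) and was at -0.39 with the trends removed (adjusted p = 0.104).

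Secreted proteins, their receptors and stress genes moved in both directions, which for many of the genes named here followed transcript length. Among 25 lipoprotein and LXR genes 4 were called higher and 5 lower (36.0%). The short messages of Apoc3 (537 bases) and Apoc2 (632 bases), apolipoproteins that regulate lipoprotein lipase, fell by 0.82 and by 0.85 (adjusted p = 0.00456 and 0.00334). Apoc2 shares 78.8% of its 31-base words with other genes, so its own level is uncertain. The long messages of Abca1 (10208 bases), a cholesterol exporter, and Lrp1 (13102 bases), a receptor for lipoprotein remnants, rose by 0.69 and by 0.68 (adjusted p = 0.00225 and 0.00472). With the trends removed these were at -0.29, -0.36, 0.22 and 0.20 and none was called, and Lrp1 was at -0.42 with an offset from the deposited effective lengths. Of 24 unfolded protein response genes 5 were called higher and 1 lower (25.0%, near the 24.5% of all tested genes), and none with the trends removed. Those called higher included the stress sensors Ern1 (0.94, adjusted p = 0.00216) and Atf6 (0.56, adjusted p = 0.00210). Pdia6 (2119 bases) rose without a long transcript, by 1.88 (adjusted p = 0.0131), and was at 1.95 with the trends removed (adjusted p = 0.0679). In amino acid catabolism 4 of 41 genes were called lower and 2 higher (14.6%). The serine dehydratase gene Sds was at 132, 140, 142 and 205 CPM below 100 and at 82.5, 62.0, 76.3 and 94.7 CPM at 100 or above. It fell by 0.97 as fitted (SE 0.16, adjusted p = 0.00286) and was at -0.64 with the trends removed (adjusted p = 0.0837). Interferon response genes were called in 9 of 42 cases (21.4%), for example Bst2 (-0.59, adjusted p = 0.00191) and Ddx58 (0.51, adjusted p = 0.00294), with a median of 0.18. After removal of the trends none was called, with Bst2 at -0.14 (adjusted p = 0.455), Ddx58 at 0.29 (adjusted p = 0.145) and the median again at 0.18.

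Clock repressors were called at a share near that of all tested genes. Per2, a repressor of the clock, was at 9.39, 13.6, 10.7 and 10.9 CPM below 100 and at 25.3, 13.3, 22.9 and 24.4 CPM at 100 or above. Sham176 overlapped the lower range, and Per2 rose by 0.95 as fitted (SE 0.19, adjusted p = 0.00660; 0.59 with the trends removed, adjusted p = 0.134). Tef and Cry2 (log2 0.63 and 0.46, adjusted p = 0.00791 and 0.0131) were the other called members of the 13 clock repressors and D-box factors (23.1%), whose median was 0.36 as fitted and 0.17 with the trends removed, when none was called. None of the 5 tested clock activators was called. Arntl, the activator encoding BMAL1, was at 3.34, 1.39, 1.02 and 1.69 CPM and then at 0.922, 2.09, 0.793 and 0.927 CPM (log2 -0.68, adjusted p = 0.253), with Sham52 highest of the first 4 and Sham176 highest of the others. Wee1, a clock-controlled kinase, was at 25.5, 20.4 and 18.4 CPM in Sham175, Sham178 and Sham179 and at 9.94 CPM in Sham176, within the 7.18 to 11.1 CPM of the livers below 100. It rose as fitted (log2 1.06, adjusted p = 0.0177), and lost its call without Sham80.

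Markers of other liver cells gave few calls. Stellate cell and fibrosis genes had a median transcript length of 4096 bases, against 2716 over all tested genes. Of the 35 tested, 7 were called higher and none lower (20%, median 0.39). Among them were Reln (0.88, adjusted p = 0.00243), Rgs5 (0.94, adjusted p = 0.00460) and Pdgfra (0.81, adjusted p = 0.0130). Hgf was the 1 member called with the trends removed, when the median was 0.14. The summed level of the tested genes was 558 to 1080 CPM below 100 and 829 to 1110 CPM at 100 or above, with no listed marker at 0 in all 8 livers. The collagen gene Col1a1 was at 7.83 to 27.6 CPM and at 9.64 to 34.8 CPM (adjusted p = 0.936). Of 25 Kupffer cell markers 1 was called, Vsig4 (-0.86, adjusted p = 0.0331), with summed levels of 625 to 1150 and 639 to 851 CPM. None of 25 sinusoidal endothelial markers was called, with 288 to 446 and 366 to 536 CPM. Of 22 markers of lipid-associated and infiltrating macrophages 2 were called lower, Lgals1 (-1.01, adjusted p = 0.00360) and Spp1 (-0.53, adjusted p = 0.0291). No Kupffer cell or macrophage marker was called with the trends removed, and Vsig4 was at -0.61, Lgals1 at -0.55 and Spp1 at -0.29 (adjusted p = 0.246, 0.112 and 0.419). Spp1 lost its call without any 1 of 5 livers (Sham80, Sham83, Sham175, Sham176 and Sham179) and Vsig4 without Sham52, Sham80, Sham83, Sham175, Sham178 or Sham179. Without Sham52 and with the trends removed, more members of some lists were called lower than with it, 12 against 3 respiratory chain genes, 7 against 1 fed response, 5 against 1 insulin signalling and 4 against 1 steatosis genes. The same held for 4 against none of the sinusoidal endothelial and 2 against none of the macrophage markers, Lgals1 among them (-0.70, adjusted p = 0.00403). Over all tested genes the share called lower rose as well, from 0.825% to 5.44%, and the share called higher from 0.416% to 4.15%. Other lists gained calls higher, with 3 against none of the ribosomal protein and 3 against 1 of the fatty acid oxidation genes. The part of cell composition in the gene differences was not tested.

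**Figure D5:**
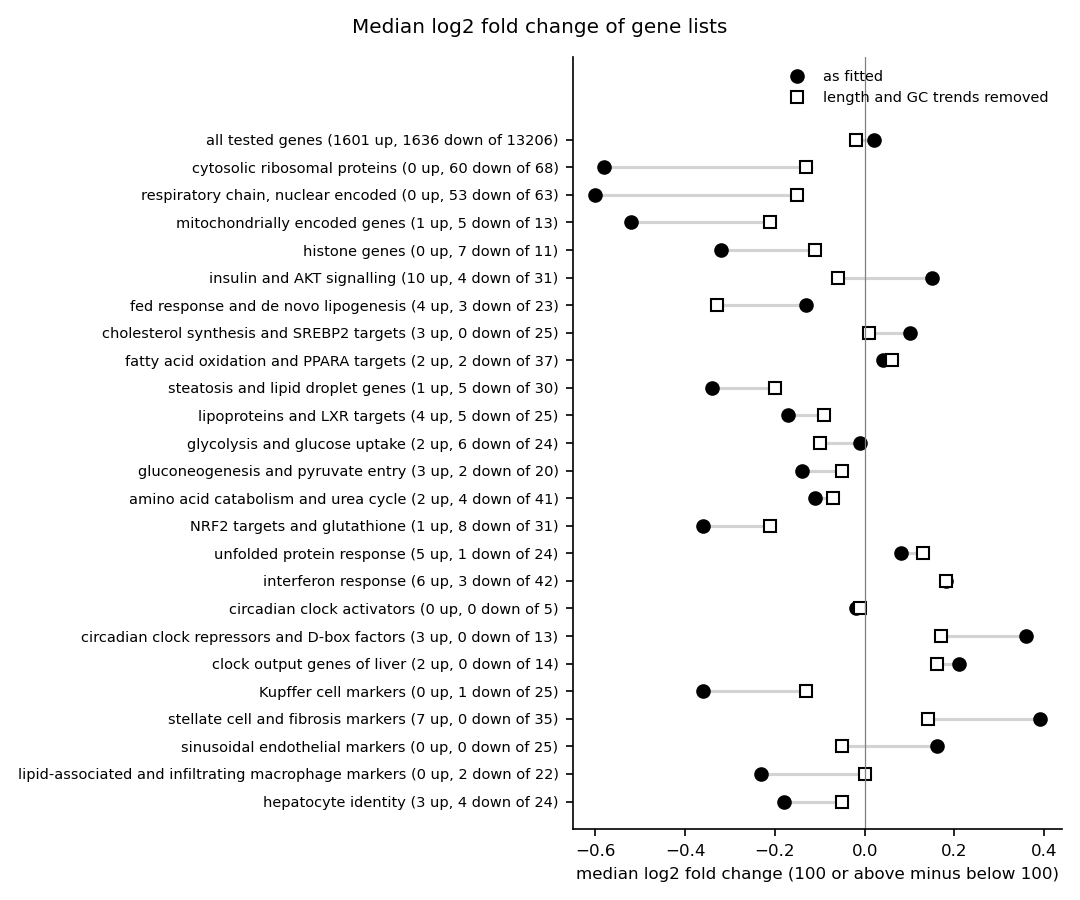
Median log2 fold change of each gene list between the ranges, as fitted (filled circles) and after removal of both trends (open squares), beside the number of members called higher (up) and lower (down) as fitted. The ribosomal and respiratory chain lists move from -0.58 and -0.60 to -0.13 and -0.15, and the insulin signalling list from 0.15 to -0.06.

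A set of 38 genes of liver clock, fasting, lipid and inflammatory biology was followed whatever its result. Of the 37 tested (Npas2 was too low), those called higher included Per2, Tef, Irs2, Insr and Ppara, and none was called lower. Irs2, an adaptor of the insulin receptor, overlapped between the ranges (log2 0.54, adjusted p = 0.0318) and lost its call without Sham79, Sham175 or Sham178. Ppara alone was called with the trends removed. The fasting hormone gene Fgf21 was at 2.79, 10.9, 7.79 and 13.2 CPM below 100 and at 2.94, 2.58, 4.11 and 5.76 CPM at 100 or above (log2 -1.17, adjusted p = 0.0854), overlapping through Sham52. Without Sham52 it was called. Pck1, of gluconeogenesis, was at 824 to 1960 and at 963 to 1750 CPM (adjusted p = 0.820), and the lipogenic enzyme Fasn at 40.4 to 202 and at 85.5 to 104 CPM (adjusted p = 0.541). Without Sham52 Fasn was called as fitted (-0.67, adjusted p = 0.0155) and with the trends removed (-1.03, adjusted p = 0.00275). The lowest Fgf21, Pck1 and Fasn values below 100 were all in Sham52. Scd1, the bile acid enzyme Cyp7a1, the acute phase gene Saa1 and the macrophage gene Gpnmb overlapped as well, with adjusted p of 0.984, 0.201, 0.676 and 0.931.

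Livers below 100 were the more variable. The median SD of log2 CPM over tested genes was 0.23 below 100 and 0.15 at 100 or above, and it was larger below 100 in 69.8% of genes. Without Sham52 the median below 100 was 0.19. The range accounted for a median of 32.7% of a gene's variance. The largest spread within ranges was that of Zc3h11a, whose transcript words are all shared with another gene, followed by Hamp, the iron hormone hepcidin. Hamp was at 434, 349, 620 and 452 CPM below 100, and at 502, 0.266, 43.8 and 155 CPM at 100 or above. Its paralog Hamp2 followed it, at 156, 112, 188 and 95.6 CPM and then at 150, 0.986, 17.2 and 51.3 CPM. Sham176 was lowest for both genes and Sham175 stayed within the range below 100, so neither gene was called (adjusted p = 0.501 and 0.429). Hamp and Hamp2 share 33.7% and 34.5% of their words with other genes. Ago1, an Argonaute protein of RNA silencing, was at 8.52, 0, 0.0638 and 1.77 CPM below 100 and at 7.25 to 11.4 CPM at 100 or above (adjusted p = 0.223), and was called without Sham52 (log2 3.82, adjusted p = 0.0155). Sham52 again stood with the livers at 100 or above.

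The same numbers divided the transplant livers in a similar way once iBAT115 was set aside. That liver was singled out after its values were seen, so the results without it depend on that choice. In iBAT115, iBAT129 and iBAT130 against iBAT88, iBAT89 and iBAT90, 40 of 12860 genes were called (0.311%), 23 higher (0.179%) and 17 lower (0.132%). With iBAT115 kept and the length and GC trends removed, 775 of 12860 were called, 417 higher and 358 lower. Without iBAT115 the count as fitted was 1987 of 12997 (15.3%), 1145 higher (8.81%) and 842 lower (6.48%). Relative to the mean of all 14 libraries, the length slope was -0.26 in iBAT115, -0.16, -0.12 and -0.09 in iBAT88, iBAT89 and iBAT90, and 0.03 and -0.01 in iBAT129 and iBAT130. Of the genes called in the empty scaffold livers and tested in the transplant livers, which share no sample with them, 75.8% of 3220 had the same sign with iBAT115 and 91.3% of 3225 without it. Over all tested genes the shares were 63.2% and 70.7%. Of the 161 tested genes called with the trends removed in the empty scaffold livers, 134 had the same sign with iBAT115 and 143 without it. The transplant contrasts in these comparisons of sign were those as fitted, from which no trend was removed. Of the 24 genes described above, 23 had the same sign with iBAT115 and none was called, with Ndufb4 at 0.09 and Rps27 at -0.64. All 24 had the same sign without iBAT115, and 13 were called. Ppara, for example, was at 48.0, 46.8 and 45.6 CPM in iBAT88, iBAT89 and iBAT90, at 50.8 CPM in iBAT115, and at 104 and 96.7 CPM in iBAT129 and iBAT130.

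The contrast was tested for a difference between empty scaffold and transplant livers in 1 fit of all 14 libraries. Of 13723 genes 1 was called, Sik1 (0.00729%, higher, and 0% lower), while 2303 had an unadjusted p under 0.05. Sik1 encodes a kinase induced by cyclic AMP that restrains gluconeogenic transcription. On the scale of all 14 libraries it was at 3.82, 5.51, 6.04 and 5.62 CPM in empty scaffold livers below 100 and at 7.21, 6.15, 8.30 and 8.14 CPM in those at 100 or above. In transplant livers it was at 6.60, 9.73 and 7.40 CPM below 100 and at 3.02, 3.88 and 2.53 CPM at 100 or above. The contrast was 0.51 in the first and -1.34 in the second group, an interaction of 1.84 (SE 0.27, adjusted p = 0.0465). With the trends removed no gene was called by edgeR's test (1282 with an unadjusted p under 0.05). Leaving out 1 library at a time gave 0 to 7 calls, 7 without iBAT129, 3 without Sham176, 1 without iBAT88 and none in the other tests.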

How the data were processed

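Liver RNA of 14 samples was sequenced from 200 ng of total RNA (RIN above 7) with a stranded mRNA kit, per the labels' protocols. The submitters' processing notes name fastp 0.20, kallisto 0.46.1, DESeq2 1.38 and build GRCm39, with no role or order. Each library's deposited table lists 128803 transcripts. Its columns, per the file headers, are the transcript's length, its effective length, the reads estimated for it and a TPM value. The authors' estimated counts carry no normalization. Depth is lost in the authors' TPM values, which entered no test. GENCODE M21 (build GRCm38) matched 120608 transcripts (93.6%), which held 99.4% to 99.5% of each library's counts. Its transcripts supplied gene names, GC content and the printed sequences, and transcripts that did not match were left out.

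Estimated counts were summed per gene and rounded. Genes were kept by filterByExpr of edgeR 4.0.16 (R 4.3.3), scaled by TMM and tested with edgeR's robust quasi-likelihood F test (two-sided, Benjamini-Hochberg over all tested genes, called at an adjusted p under 0.05). For removal of trends, each library's natural splines (4 df) of level on log2 length and on GC content entered as an offset, and the procedure was tested on simulated data. Alternatives were DESeq2 1.42.0, limma-voom (limma 3.58.1), RLE and upper quartile scaling, no filter, each trend alone, effective lengths, all 14 libraries in 1 fit, and each library left out. Library properties were compared by exact permutation over all 70 splits.

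Named genes are the 12 largest rises and 12 largest falls called with and without the trends (mean of at least 1 CPM, no predicted genes or pseudogenes), up to 4 called members of each list with the smallest adjusted p, a set of 38 genes whatever their result, and the 10 genes with the largest spread within ranges. Genes named outside this rule are Nnt, Plec and Plin3. In the lists, mt-Atp6, mt-Nd1 and others were given to complete a count of called members. All of these were chosen after their values were seen. Some genes that meet the rule are not reported here. Ranges, members and the 55 gene lists were chosen with earlier results of these data known. CPM values depend on kallisto's division of reads among similar transcripts.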

Additional observations from a re-analysis of the deposited data

Results flagged for a closer look

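In 12 of 198 groups of 4 livers examined, the highest or lowest liver was separated from the nearest other by a larger part of the group's range than Dixon's 95% critical value for 4 samples allows. Chance gives this in about 1 in 20 groups, which is close to the number found. Among livers below 100, Sham52 was high for Cry2 (27.3 CPM against 21.4 to 22.4), Cps1 (1240 against 655 to 710) and Mdh1 (21 against 0.214 to 1.44), and low for Gstm1 (842 against 1640 to 1810) and Lgals1 (96.2 against 172 or more). Sham83 was high for Acly (75.6 CPM) and Sds (205 CPM), and Sham80 low for Ints9 (0 CPM). Among livers at 100 or above, Sham176 was low for Mast2 (9.03 CPM) and high for Arntl (2.09 CPM), Sham178 low for Angptl4 (68.2 CPM), and Sham175 at 0 for Akap12 (1.72 to 1.95 CPM in the others). Sham52 gave 5 of the 12. For Cry2, Cps1, Gstm1 and Lgals1 it lay on the side of the livers at 100 or above. For Mdh1 it was above every one of them (0.410 to 10.8 CPM).

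Sik1 was the gene whose contrast differed between empty scaffold and transplant livers by the interaction test, by 1.84 (SE 0.27, adjusted p = 0.0465).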

How the results depend on the processing

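The count of 3237 genes called between the ranges stayed between 2921 (no filter, 23887 genes tested) and 3771 (DESeq2) under RLE and upper quartile scaling, limma-voom, removal of the GC trend alone, effective lengths and 1 fit of all 14 libraries. Removing the length trend alone gave 156 calls (51 higher and 105 lower) and removing both trends 164 (55 and 109), so the length trend is the choice that changed the count. Leaving out 1 liver gave 1831 (without Sham179) to 4195 (without Sham52) calls, 932 to 2136 higher and 899 to 2059 lower. With both trends removed it gave 4 (without Sham179) to 1289 (without Sham52), 3 to 558 higher and 1 to 731 lower. The contrast in transplant livers gave 775 calls with the trends removed, and 0 (without iBAT88) to 1987 (without iBAT115) when a liver was left out. The interaction gave 0 calls with the trends removed (1282 genes with an unadjusted p under 0.05) and 0 to 7 when a library was left out. The causes of these changes were not tested. No paired analysis was possible because the numbers in the titles differ between the ranges and pair no samples.

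With both trends removed 45 of 96 named genes kept their side of the threshold and direction, 46 were no longer called and 5 changed sign. Signs changed to -0.03 (Insr), -0.27 (Col1a1), 0.00 (Eci1), 0.24 (Mdh1) and 0.17 (Saa1). With the length trend alone removed they changed to -0.02 (Insr), -0.31 (Col1a1), 0.25 (Mdh1) and 0.17 (Saa1). Effective lengths changed Tsc2 to -0.65, Lrp1 to -0.42, Gpnmb to 0.01 and Scd1 to 0.03. Scd1 was at 0.00 with no filter, and limma-voom gave 0.04 for Akap12 and 0.57 for Mdh1. When a liver was left out, genes not called reversed within ranges of -0.49 to 0.37 (Akap12), -0.39 to 0.36 (Col1a1), -0.82 to 0.27 (Gpnmb), -0.32 to 0.31 (Ints9), -0.84 to 2.53 (Mdh1), -0.30 to 0.07 (Pck1), -0.81 to 0.04 (Saa1) and -0.20 to 0.20 (Scd1). With both trends removed as well, such ranges were -0.27 to 0.02 (Alb), -0.05 to 0.55 (Cyp7a1), -0.04 to 0.06 (Eci1), -1.03 to 0.03 (Gpnmb), -0.07 to 0.01 (Insr), -0.35 to 0.25 (Ints9), -0.37 to 3.01 (Mdh1), -0.31 to 0.05 (Pck1), -0.34 to 0.54 (Saa1) and -0.43 to 0.02 (mt-Atp6). Depth limits genes below about 1 CPM, such as Lamb1 below 100.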
